A study of Homo sapiens with 3 samples.

Results

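Read counts are described for 6 of the 26485 gene names in the count tables of 3 RNA sequencing libraries from HEK293, an established human line of embryonic kidney origin that carries adenovirus DNA. The 6 genes were chosen by name with their counts in these libraries already known. SNX22 and ATP6V1C2 were among the highest names of the tables, PPIB and PDIA6 are genes of protein folding in the endoplasmic reticulum (ER) whose exons lie on the other strand of the same DNA, and DDIT3 and XBP1 are stress genes set beside them. Levels of the 6 genes and the differences between them are therefore descriptions and carry no test. All 3 libraries form 1 group grown in DMEM with fetal calf serum, and the labels give no genotype change, treatment or time. Total RNA was taken with TRIzol, ribosomal RNA was removed and a directional kit was used, although the sample titles speak of mRNA sequencing. Nothing in the labels tells separate cultures from repeat libraries, so any spread or p-value below describes these 3 libraries and may be technical.

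Proteins that enter the secretory pathway fold in the ER with the help of chaperones, protein disulfide isomerases and prolyl isomerases. When unfolded proteins build up there, the sensors encoded by ERN1 (IRE1), EIF2AK3 (PERK) and ATF6 start the unfolded protein response. IRE1 splices the mRNA of XBP1, which then encodes an active transcription factor, and PERK signalling raises ATF4 and, through it, DDIT3. PPIB encodes cyclophilin B, a prolyl isomerase of the ER, and PDIA6 encodes a disulfide isomerase of the ER. DDIT3 encodes CHOP, a transcription factor of prolonged ER stress. SNX22 encodes a sorting nexin, a protein that binds membranes through a phosphoinositide-binding PX domain. ATP6V1C2 encodes an isoform of the C subunit in the V1 sector of the vacuolar proton ATPase, the pump that acidifies endosomes and lysosomes.

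Both pairs run towards each other and overlap at their 3′ ends (GENCODE release 29, GRCh38, the assembly that hg38 names). SNX22 lies on the plus strand of chromosome 15 from 64151715 to 64157481 and PPIB on the minus strand from 64155812 to 64163205. They share 519 exonic bases in 2 stretches, chr15:64155812-64156145 and chr15:64156725-64156909. These are 27.2% of the 1911 exonic bases of PPIB and 9.0% of the 5767 of SNX22, whose retained-intron transcripts fill its whole gene body. Transcripts annotated as protein-coding cover 3614 bases of SNX22. ATP6V1C2 lies on the plus strand of chromosome 2 from 10721100 to 10785110 and PDIA6 on the minus strand from 10783391 to 10837977. They share 1033 exonic bases, chr2:10783391-10784326 and chr2:10784934-10785030, or 25.2% of the 4101 exonic bases of PDIA6 and 29.7% of the 3483 of ATP6V1C2. ATP6V1C2 shares a further 9 bases with AC092687.3, a lincRNA that was not analysed here.

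In neither pair does the overlap reach a coding base of the plus-strand gene, while it holds coding bases of the folding gene. The sequences are shown because each is read as codons from the minus strand and lies, as its reverse complement, in an annotated exon of the highly counted partner. For PPIB, 2 coding stretches of 185 and 123 bases (stop codon included, 1 annotated transcript) encode residues 115 to 176 and 177 to 216 of 216, so the C-terminal part of cyclophilin B lies opposite SNX22 exons. For PDIA6, stretches of 97 and 69 bases hold residues 386 to 418 and 419 to 440 of 440, among them the KDEL signal that returns ER proteins from the Golgi. Capitals mark the stop codon of PPIB, and the KDEL codons with the stop codon of PDIA6. Sequences run 5′ to 3′ on the minus strand.
PPIB chr15:64156725-64156909: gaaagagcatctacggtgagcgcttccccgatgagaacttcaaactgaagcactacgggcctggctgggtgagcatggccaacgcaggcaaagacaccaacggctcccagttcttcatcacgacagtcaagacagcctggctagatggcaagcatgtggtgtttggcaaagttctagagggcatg
PPIB chr15:64156023-64156145: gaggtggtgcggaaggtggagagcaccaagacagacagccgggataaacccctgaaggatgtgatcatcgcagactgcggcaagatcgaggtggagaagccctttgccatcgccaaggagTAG
PDIA6 chr2:10784934-10785030: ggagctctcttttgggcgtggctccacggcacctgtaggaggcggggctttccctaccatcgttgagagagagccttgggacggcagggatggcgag
PDIA6 chr2:10784258-10784326: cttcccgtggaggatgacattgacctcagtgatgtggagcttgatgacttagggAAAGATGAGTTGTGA

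**Figure D1:**
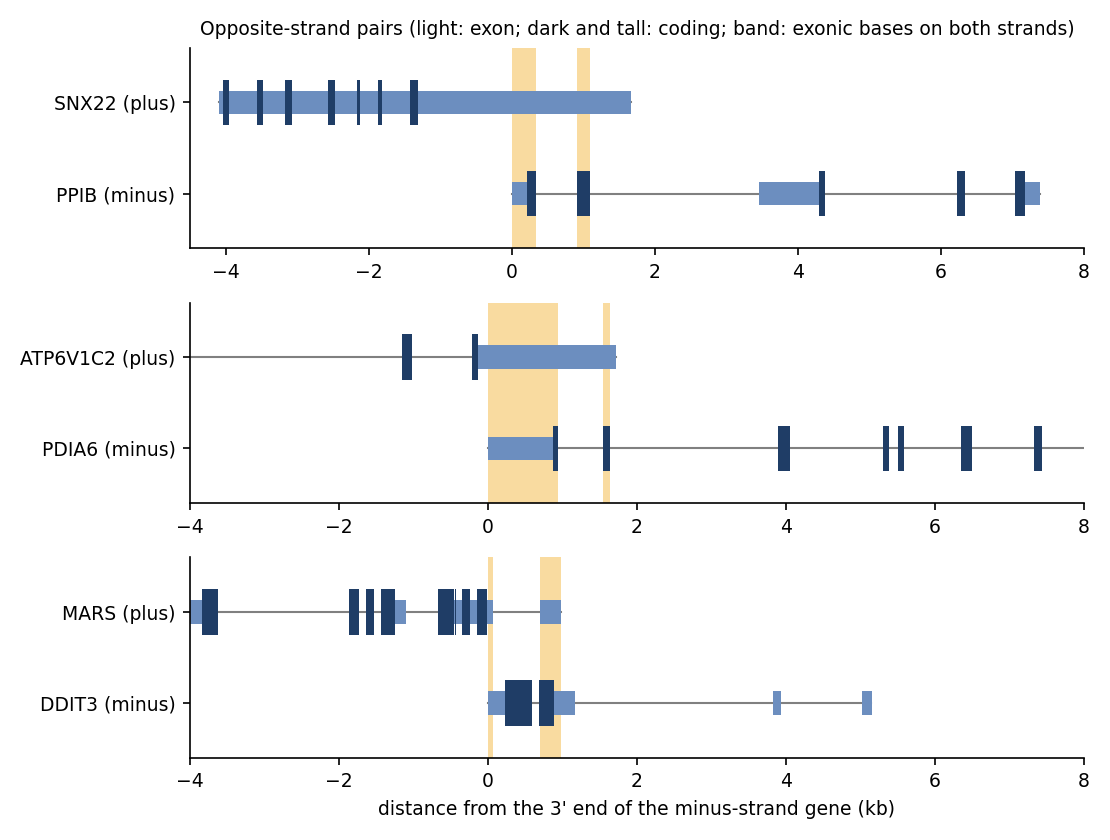
Exon maps of SNX22 with PPIB, ATP6V1C2 with PDIA6 and MARS with DDIT3, drawn to scale in kilobases from the 3′ end of the minus-strand gene. Light boxes are merged exons, dark tall boxes are coding bases and bands are bases that are exonic on both strands (519, 1033 and 355 bases); in the upper 2 maps the bands cover coding boxes of PPIB and PDIA6 and none of SNX22 and ATP6V1C2.

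DDIT3 has 2 opposite-strand neighbours and XBP1 has none. DDIT3 lies on the minus strand of chromosome 12 from 57516588 to 57521737. It shares 355 of its 1307 exonic bases with MARS, the cytosolic methionyl-tRNA synthetase gene (57475445 to 57517569), 193 of them coding in DDIT3, and 58 bases with MBD6 (57520710 to 57530148). Only 68 of the 355 bases are shared between protein-coding transcripts of both genes. XBP1 lies on the minus strand of chromosome 22 from 28794555 to 28800597, with 3028 exonic bases and no annotated gene opposite. The processed pseudogene XBP1P1 resembles XBP1, and the tables list records aligned to several places apart from the gene counts.

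Counts per gene are low, although each library held 15046765 to 20436963 records in no annotated feature. Gene-assigned totals were 289241 to 483114 counts, 1.76% to 2.48% of all records, and 90.6% to 91.5% of records fell in no annotated feature. Levels are given as CPM, counts per 1000000 of a library's effective size, in which 3 counts equal 6.86, 6.92 and 9.89 CPM in replicates 1, 2 and 3. Replicate 2 stood apart, with 28.5% of its gene-assigned counts under TSIX against 17.9% and 17.1% in replicates 1 and 3. Of 8 genes known to be expressed in HEK293, 7 had a count in at least 1 library and 4 in every library. They were led by NEFL (45.6 ± 23.7 CPM), VIM (37.4 ± 19.4 CPM) and IGF2BP1 (27.6 ± 25.8 CPM; SD, n = 3 each), whereas PAX2 had no count, and VIM-AS1, opposite VIM, had 2179 CPM on average. Of these 8 genes only NEFL reached 10 counts in every library, or 12.5% against 9.68% of all names. NEFM received 0, 1 and 0 counts, CDH2 2, 0 and 0 and HOXA9 0, 0 and 6, all named after their values were seen. Among all 26485 names, 14482 were counted at all and 7738 in all 3 libraries, and 8 genes are too few to compare these shares further. None of 9 marker genes of blood, liver and fibroblasts had a count. Which strand setting the counting used was not stated in these sources, so the strand of the RNA behind a count cannot be told apart. This holds for overlapping genes and for genes with none opposite, so a low or absent count need not mean little RNA. Records ambiguous between genes numbered 4207, 3564 and 3010 in replicates 1, 2 and 3, and their bearing on the strand setting was not tested. Every level below is a level of counts under a gene name.

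SNX22 received 2566, 1987 and 1733 counts in replicates 1, 2 and 3, or 5866, 4580 and 5712 CPM. All 3 libraries were high, and the mean of 5386 ± 702 CPM (SD, n = 3) placed the name 7th of 26485. PPIB received 44, 25 and 32 counts, or 101, 57.6 and 105 CPM. Its mean of 87.9 ± 26.3 CPM (SD, n = 3) ranked 1502nd, and the libraries of the 2 genes did not overlap. PPIB took 1.69%, 1.24% and 1.81% of the counts of the pair, with exact Clopper-Pearson 95% intervals of 1.23% to 2.26%, 0.806% to 1.83% and 1.24% to 2.55%, which cover counting error only. Counts of SNX22 thus exceeded those of PPIB 58.3, 79.5 and 54.2 times, and the log2 ratio of SNX22 to PPIB was 5.97 ± 0.29 (SD, n = 3) with 0.5 CPM added to both. Per kilobase of exon the log2 ratio was 4.37, and 4.23 per kilobase of protein-coding transcripts, because SNX22 has the longer exons.

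ATP6V1C2 received 1998, 1842 and 1626 counts, or 4567, 4246 and 5359 CPM, with a mean of 4724 ± 573 CPM (SD, n = 3) that ranked 10th by CPM. PDIA6 received 16, 3 and 12 counts, or 36.6, 6.92 and 39.6 CPM, with a mean of 27.7 ± 18.0 CPM (SD, n = 3) that ranked 3398th. Replicate 2 was low for PDIA6, at the level of 3 counts, and in all 3 libraries the 2 genes lay far apart. PDIA6 took 0.794%, 0.163% and 0.733% of the pair, with exact Clopper-Pearson 95% intervals of 0.455% to 1.29%, 0.0335% to 0.474% and 0.379% to 1.28%. The log2 ratio of ATP6V1C2 to PDIA6 was 6.95, 9.16 and 7.06 in replicates 1, 2 and 3, with a mean of 7.72 ± 1.25 (SD, n = 3). The 3 counts of PDIA6 in replicate 2 set the high value there, and without that library the mean log2 ratio was 7.01. Per kilobase of exon it was 7.83 over all 3 libraries.

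**Figure D2:**
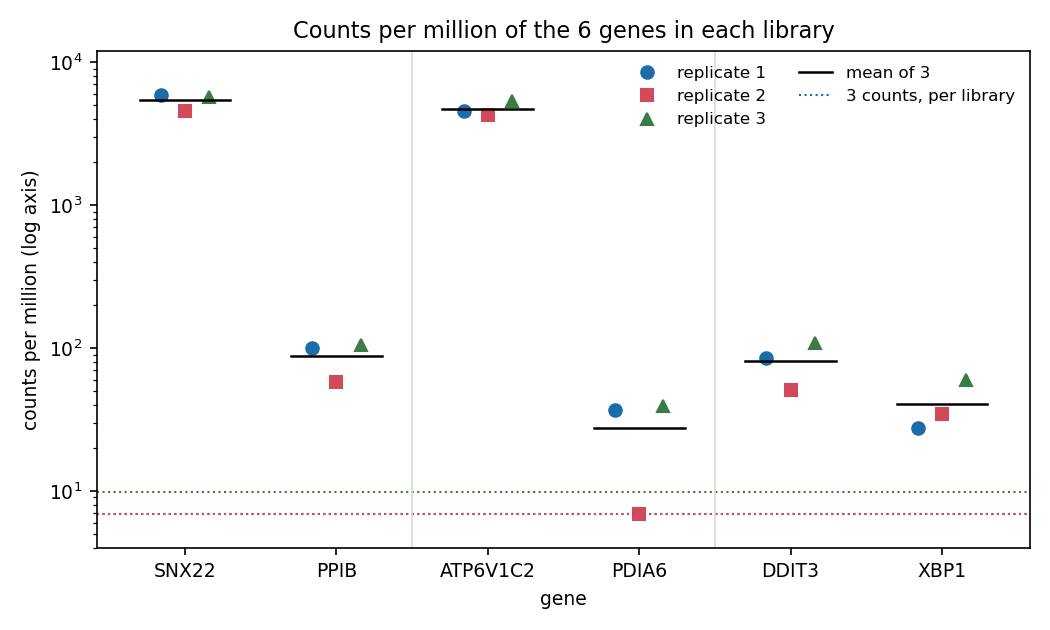
CPM of the 6 genes in each library on a log axis, with the mean of 3 as a bar and dotted lines at the CPM of 3 counts in each library (6.86, 6.92 and 9.89). SNX22 and ATP6V1C2 lie between 4246 and 5866 CPM in every library, and the other 4 genes between 6.92 and 109 CPM.

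DDIT3 received 37, 22 and 33 counts, or 84.6, 50.7 and 109 CPM, with a mean of 81.4 ± 29.2 CPM (SD, n = 3). Replicate 2 was the lowest library. MARS received 19, 9 and 8 counts (30.2 ± 11.8 CPM) and MBD6, a gene of the methyl-CpG-binding domain family, received 3, 4 and 1 (6.46 ± 2.98 CPM; SD, n = 3 each). Unlike the folding genes, DDIT3 had more counts than its opposite-strand neighbours in each library, with a log2 ratio to MARS of 1.42 ± 0.55 (SD, n = 3). XBP1 received 12, 15 and 18 counts, or 27.4, 34.6 and 59.3 CPM, with a mean of 40.4 ± 16.7 CPM (SD, n = 3) and replicate 3 the highest. DDIT3 exceeded XBP1 in every library, by a log2 ratio of 1.01 ± 0.54 (SD, n = 3), although the libraries of the 2 genes overlapped, and by 2.18 per kilobase of exon, since DDIT3 has the shorter exons. The counts are per gene and do not separate spliced from unspliced XBP1 mRNA.

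Levels were also compared per kilobase of exon, which takes counts as spread over all merged exons. Counts per gene do not show where in the gene they lie. On this scale ATP6V1C2 was highest at 1356 ± 165 CPM per kilobase and SNX22 followed at 934 ± 122, with no overlap between their libraries (SD, n = 3 each). Per kilobase of protein-coding transcripts the order turned, with SNX22 at 1490 ± 194 and ATP6V1C2 at 1390 ± 169 CPM per kilobase. DDIT3 had 62.2 ± 22.3 and PPIB 46.0 ± 13.8 CPM per kilobase of exon, with DDIT3 higher in each of the 3 libraries but ranges that overlapped. Per kilobase of protein-coding transcripts this order turned too, with PPIB at 81.3 ± 24.4 and DDIT3 at 62.2 ± 22.3 CPM per kilobase (SD, n = 3 each). XBP1 at 13.4 ± 5.53 and PDIA6 at 6.75 ± 4.40 CPM per kilobase came last and overlapped each other (SD, n = 3 each). PPIB lay above XBP1 with no overlap, so by their means the 2 ER folding genes stood on either side of XBP1, but only PPIB was clear of it. By the root mean square difference in log2 CPM over the 3 libraries, the name most like SNX22 was ATP6V1C2 (0.22), followed by ENTPD1 and SYNC (0.33 each). After SNX22, RPAIN (0.27) and GLIPR1 (0.28) were most like ATP6V1C2. These 4 other names also have exons of another gene opposite: ENTPD1-AS1, RBBP4, NUP88 and KRR1. The same holds for 1690 of the 2564 names with at least 10 counts in every library, so this trait is common. ARSB (0.08), LOC102723701 (0.09) and CA3-AS1 (0.10) were most like PPIB. For DDIT3 they were LOC102723701 (0.09), CTSA (0.12) and PRR7-AS1 (0.13), and for XBP1 H3F3B (0.06), FHL2 (0.08) and CBY1 (0.10). At this lower level 42 names lay within 0.25 of PPIB, 25 within that of DDIT3 and 33 within that of XBP1, so these likenesses are common. CA3-AS1, CTSA, PRR7-AS1, H3F3B, FHL2 and CBY1 likewise have exons of another gene opposite. ARSB has none, and LOC102723701 was not matched to the annotation.

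PDIA6 and XBP1 share a sequence feature that was not read from the counts. The ER stress response element, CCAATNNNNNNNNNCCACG, binds NF-Y at its first part and ATF6 at its second. It was searched on both strands of RefSeq promoter windows (GRCh38.p14), from 250 bases before to 50 bases after each annotated start. All 6 genes had a window, and those of PDIA6 (1 of 2 annotated starts) and XBP1 (1 of 2) held the element, on the strand of the gene. It was in 27 of 35116 windows of all genes (0.0769%) and, counted per gene, in 25 of 27305 genes (0.0916%), against 8 of 94 genes of the ER and stress lists described below that had a window (8.51%). XBP1 and the lists were chosen as ER and stress genes, so these shares are a description and no test. The element lies 86 to 68 bases before the PDIA6 start and 52 to 34 bases before the XBP1 start. The letters were not in the windows of PPIB, DDIT3, SNX22 and ATP6V1C2, which says nothing of other forms of the element. The matches are shown 5′ to 3′ on the minus strand with 25 bases on each side and the element in capitals.
PDIA6 chr2:10812828-10812896: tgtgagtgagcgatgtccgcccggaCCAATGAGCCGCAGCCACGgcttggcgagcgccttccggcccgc
XBP1 chr22:28800578-28800646: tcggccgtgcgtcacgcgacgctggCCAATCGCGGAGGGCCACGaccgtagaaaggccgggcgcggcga
The other 6 list genes with the element were CALR, CANX, CRELD2, ERO1B, HSP90B1 and HSPA5, and their mean levels ran from 1.54 CPM for CRELD2 to 187 CPM for ERO1B.

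Most other genes of ER folding, stress signalling and ER-associated degradation had fewer counts than PPIB. Over 6 lists with 107 genes, 83 had a count in some library, 55 in every library and 18 at least 10 counts in every library, or 16.8% against 9.68% of all names. Their median was 5.69 CPM, against 1.10 CPM over all names. Their summed share of gene-assigned counts was 0.227% ± 0.0124 (SD, n = 3), and SNX22 alone held more than that in each library. CPM is not divided by length, so the orders by CPM in the next paragraphs are orders of counts. Within these lists 10 of 42 genes with opposite-strand exonic overlap (23.8%) reached 10 counts in every library, as did 6 of 14 that overlap an opposite-strand gene only outside shared exons (42.9%) and 2 of 51 with no gene opposite (3.92%). Over all names these shares were 21.6%, 7.03% and 3.17%. The lists lay farthest from all names in the class that overlaps an opposite-strand gene only outside shared exons. That class has 14 list genes and holds neither PPIB nor PDIA6, and the difference was not tested.

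Among disulfide isomerases, 5 of 18 reached 10 counts in every library, and PDIA6 was not among them. TMX2 (154 ± 22.2 CPM), ERP44 (122 ± 46.5 CPM), which retains oxidases and clients in the early secretory pathway, and ERP29 (54.6 ± 18.8 CPM; SD, n = 3 each) were highest. PPIB had the highest CPM of 8 prolyl isomerases, and also the highest level per kilobase of exon, ahead of FKBP9 (40.2 ± 8.76 CPM) and FKBP14 (32.9 ± 13.3 CPM; SD, n = 3 each), and 2 of the 8 reached 10 counts in every library. The 24 chaperone genes were led by DNAJC3 (135 ± 42.8 CPM), a co-chaperone of BiP, UGGT1 (62.0 ± 29.5 CPM), the glucosyltransferase that senses misfolded glycoproteins, and HSP90B1 (49.4 ± 21.6 CPM; SD, n = 3 each). Of the 24, 3 reached 10 counts in every library. In HSP90B1 the opposite-strand gene C12orf73 shared 121 bases and received 28, 46 and 8 counts. HSPA5, the gene of BiP itself, received 12, 1 and 7 counts and was named after its values were seen. The 10 oxidation genes were led by ERO1B (187 ± 134 CPM), an oxidase that reoxidises disulfide isomerases, VKORC1L1 (51.4 ± 31.1 CPM) and PRDX4 (35.1 ± 25.1 CPM; SD, n = 3 each), with 2 at 10 counts in every library.

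In the unfolded protein response list, DDIT3 ranked 2nd of 24 genes by mean CPM and XBP1 4th, and 3 of the 24 reached 10 counts in every library. PPP1R15B, a regulatory subunit of the phosphatase that reverses PERK signalling, was highest at 302 ± 84.2 CPM, and CREB3, a membrane-bound transcription factor, followed DDIT3 at 58.7 ± 36.3 CPM (SD, n = 3 each). Per kilobase of exon DDIT3 (62.2) and PPP1R15B (57.7) changed places. GBA2, opposite CREB3 over 139 bases, received 18, 20 and 9 counts. ATF6B and CHAC1 were among 8 members without a count. The sensors and the factor next upstream of DDIT3, named after their values were seen, were low: EIF2AK3 received 2, 1 and 2 counts, ATF6 6, 9 and 6, ATF4 2, 7 and 6, and ERN1 none in any library, which allows up to the 3-count level given above. The 23 degradation genes, 3 of which reached 10 counts in every library, were led by NPLOC4 (59.5 ± 25.6 CPM), UFD1L (44.8 ± 6.87 CPM) and the ubiquitin ligase gene SYVN1 (35.7 ± 11.2 CPM; SD, n = 3 each), and DERL3 and EDEM2 were among 7 without a count.

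SNX22 and ATP6V1C2, already known to be among the highest names when chosen, had far more counts than the other genes of their own families. Of 30 sorting nexin genes, 3 reached 10 counts in every library: SNX22, SNX21 (288 ± 37.8 CPM), which shares 1489 exonic bases with ACOT8 on the other strand, and SNX2 (47.8 ± 7.96 CPM; SD, n = 3 each). The median of the 30 was 5.47 CPM, and SNX11 and SNX15 were among 6 without a count. Of 13 V1 subunit genes, ATP6V1C2 was the only one with 10 counts in every library, and the next was ATP6V1G1 with 5, 0 and 4 counts. The sister isoform ATP6V1C1 received 1, 0 and 3 counts, ATP6V1A 3, 1 and 1, and ATP6V1B2 and ATP6V1E2 were among 5 without a count. RHOQ, opposite ATP6V1E2, had 948 CPM on average.

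Opposite-strand partners in the tables were found for 28 of the 107 ER and stress genes. By CPM the partner was higher in every library for 11 genes, the listed gene for 5, and for 12 the order changed or was tied. Without replicate 2, and also per kilobase of exon, the partner was again higher for 11. Over all 5160 names with such a partner, the partner was higher for 1638 (31.7%) and the name itself for 1523. For 1999 the order changed or was tied, and most pairs enter these numbers from both sides. PPIB and PDIA6, chosen for this order, are 2 of the 11, so 11 against 5 is not read as a trait of ER and stress genes. The largest partner levels after those of PPIB and PDIA6 belonged to AUP1, a degradation factor gene with 14, 3 and 0 counts against 377, 223 and 258 for HTRA2. TNFRSF10B, a death receptor gene that DDIT3 activates, had 9, 4 and 5 counts against 115, 88 and 71 for RHOBTB2. CEBPB had 8, 8 and 3 against 63, 32 and 45 for CEBPB-AS1, and PRKCSH had 2, 0 and 3 against 45, 37 and 38 for CCDC151; these 4 were named after their values were seen. The order was the other way for DDIT3 over MARS, NPLOC4 over TSPAN10 (no count) and TXNDC12 over BTF3L4, the last named after its values were seen. SYVN1, which shares 356 bases with MRPL49, received 10, 18 and 13 counts against 10, 4 and 6, a tie in replicate 1. With at least 100 shared bases 8 of 19 genes had the higher partner and 1, DDIT3, was higher than its partner. PPIB and PDIA6 are 2 of these 8, and the share over all names was not computed at this setting, so this split has no background.

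**Figure D3:**
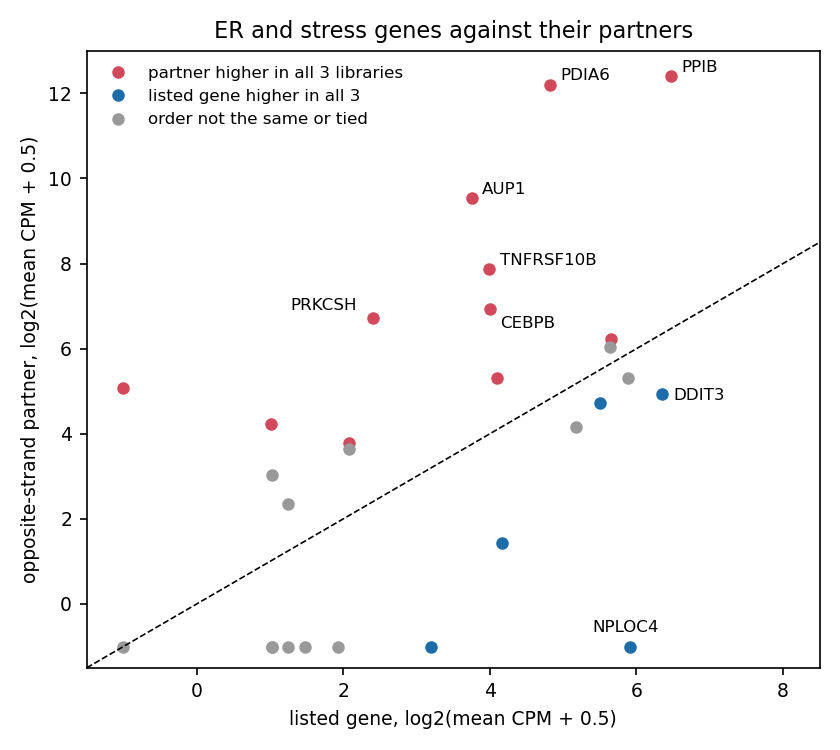
Mean level of 28 ER and stress genes against that of their opposite-strand partner, both as log2(mean CPM + 0.5), 1 point per gene, with the line of equal levels dashed. In red are the 11 genes whose partner was higher in all 3 libraries, with PDIA6 and PPIB at the top; DDIT3 and NPLOC4 are among the 5 in blue below the line.

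Variation between the 3 libraries was tested against counting error with edgeR's Poisson fit, in which 1175 of the 2564 genes that reached 10 counts in each library had an adjusted p under 0.05, or 45.8%. Of the 6 genes, 5 could be tested, since PDIA6 did not reach 10 counts, and 3 passed. SNX22 passed with an adjusted p of 3.34e-16 (edgeR), and its highest library exceeded its lowest 1.28 times. ATP6V1C2 passed with an adjusted p of 7.96e-10 (edgeR) and a ratio of 1.26, so a small difference passed at a high count. DDIT3 passed at 0.0377 with a ratio of 2.15, whereas PPIB, with a ratio of 1.83, had an adjusted p of 0.0664 and XBP1, with 2.16, one of 0.163 (edgeR). Replicate 2 was the lowest library for SNX22, PPIB, ATP6V1C2, PDIA6 and DDIT3, and replicate 1 for XBP1. Relative to the mean of replicates 1 and 3, replicate 2 differed by a log2 ratio of -0.34 for SNX22, -0.83 for PPIB, -0.23 for ATP6V1C2, -2.38 for PDIA6, -0.92 for DDIT3 and -0.32 for XBP1. TSIX moved the other way, and its part in these values was not tested.

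**Figure D4:**
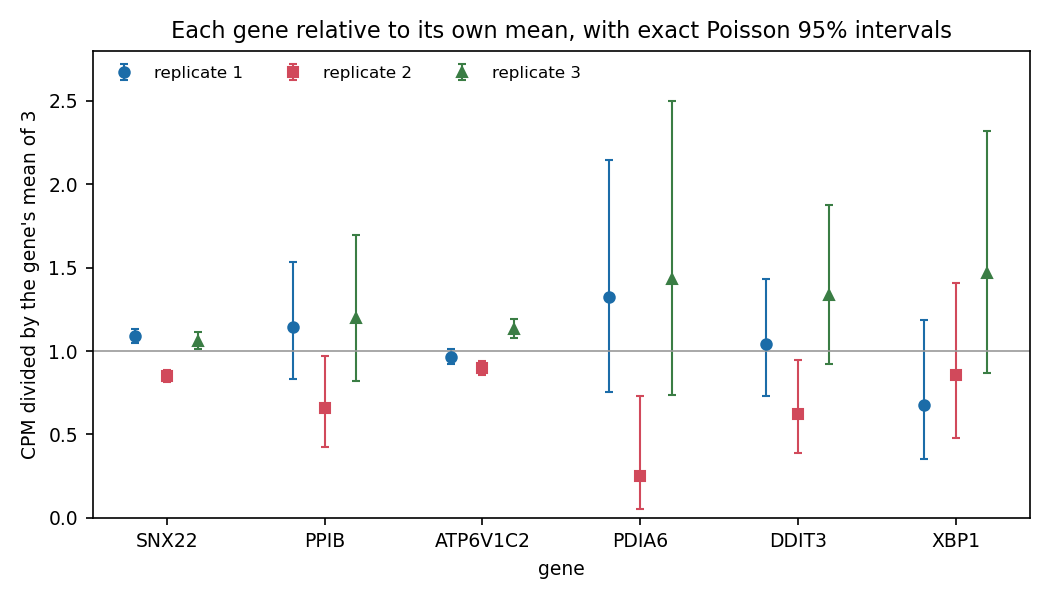
CPM of each gene divided by its mean over 3 libraries, with exact Poisson 95% intervals of the counts, which cover counting error only. Replicate 2 sits lowest for 5 genes, at 0.25 for PDIA6 and 0.90 for ATP6V1C2, and the intervals of PDIA6, DDIT3, PPIB and XBP1 are wide.

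These calls rest on single libraries. Without replicate 2, the adjusted p was 0.659 for SNX22 and 0.576 for DDIT3, and 263 of 2784 genes passed (edgeR). Without replicate 3, it was 0.883 for ATP6V1C2 and 0.195 for DDIT3 (edgeR). PPIB passed on total counts as library size (adjusted p = 0.00958, edgeR), and PDIA6 passed where no count minimum was set (adjusted p = 0.0183, edgeR). Against a negative binomial null with the common dispersion of the 3 libraries, none of the 2564 genes passed (edgeR) and 136 had an unadjusted p under 0.05. Among the 107 ER and stress genes 18 were tested and 7 passed, or 38.9%. ERO1B (110, 341 and 109 CPM), PPP1R15B (235, 396 and 274 CPM), ERP44 (93.7, 175 and 95.6 CPM) and DNAJC3 (123, 182 and 98.9 CPM) were highest in replicate 2. UGGT1 and NPLOC4 were highest in replicate 1 and DDIT3 in replicate 3. Of all 1175 genes that passed, 579 were highest in replicate 2, 272 in replicate 1 and 324 in replicate 3. Replicate 2 thus led in both sets, and 7 genes are too few to compare the splits further.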

How the data were processed

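For each of 3 libraries the authors deposited raw counts, 1 whole number per gene symbol. Tools named in the submitters' processing notes are HTSeq 0.11.2, TopHat2, listed as 2.2.5, and Trimmomatic, and the genome is hg38. Neither annotation nor strand option was stated in these sources. The 5 summary lines of the counter stayed out of library sizes and tests. All libraries formed 1 group.

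CPM used TMM effective library sizes (edgeR 4.0.16, R 4.3.3). Variation between libraries was tested with edgeR's Poisson fit (dispersion 0, intercept alone) on genes that reached 10 counts in each library, with Benjamini-Hochberg adjustment over all genes tested. Log2 ratios added 0.5 CPM. DESeq2 1.42.0 size factors were an alternative. Exons of GENCODE 29 were merged over transcripts. Names matched 23900 by name and 716 through an older symbol (92.9% of 26485), and a partner is the name in the tables with the most shared exonic bases in total. The scripts were tested on simulated counts. Intervals came from scipy 1.17.1.

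The members and lists were chosen with earlier results of these data known. Named genes are the 6 members, their opposite-strand genes, the 3 highest of each list, up to 2 without a count where most of a list lacked a count in some library, and the 3 names most like each member with at least 10 counts in every library. Partners of named list genes are given where a result turns on them.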

Additional observations from a re-analysis of the deposited data

How the results depend on the processing

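Without a count minimum 2914 genes varied between libraries, with a negative binomial null 0 did (136 at an unadjusted p under 0.05, edgeR), and leaving out each replicate in turn gave 263 to 1093, the lowest without replicate 2. The first tests 14482 genes and the second allows a wider spread by construction; the cause of the change without replicate 2 was not tested. Total counts, DESeq2 size factors and a Pearson statistic gave 1161 to 1219. The log2 ratio of SNX22 to PPIB was 4.37 per kilobase of exon and 4.23 per kilobase of protein-coding transcripts, the latter chosen after seeing the data. The log2 ratio of DDIT3 to XBP1 was 2.18 and 1.63 on these scales. Both shifts are those of the exon lengths. Every other alternative run, including each left-out replicate, kept the direction of the 3 log2 ratios and moved them by less than 1 SD. The partner was higher for 11 to 13 of 28 ER and stress genes per kilobase and with each replicate left out, for 8 of 19 with at least 100 shared bases and for 8 of 20 with protein-coding transcripts alone. Shares over all names were not computed for these settings. DDIT3 lost its call for variation with DESeq2 size factors (adjusted p = 0.0514) and without a count minimum (0.0708), both with edgeR's Poisson fit. Leaving TSIX out of library sizes raised the means of all 6 genes in like proportion, for example SNX22 to 6848, ATP6V1C2 to 6006, PPIB to 111.8 and PDIA6 to 35.2 CPM. Low counts per gene limit the comparison of libraries. At 12 to 44 counts per library the exact Poisson intervals of the lowest and highest library overlap for PPIB, DDIT3 and XBP1. By contrast, the interval of PDIA6 in replicate 2 (1.43 to 20.2 CPM, 3 counts) lies just below those of replicates 1 (20.9 to 59.4) and 3 (20.4 to 69.1).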
